A study of Mus musculus with 9 samples.

Results

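The genes described here encode axon guidance ligands and receptors: the semaphorins of classes 3 to 7 with their plexin and neuropilin receptors, the Slits with the Robo receptors, the netrins with Dcc, Neo1 and the Unc5 receptors, and the ephrins with the Eph receptors. A rule on gene symbols defined the members, and 72 of the 38197 symbols in the deposited tables matched it. RNA was measured in neural stem cells (NSCs) of hindbrain identity that were derived in culture from wild type mouse embryonic stem cells of strain 129. The cultures received retinoic acid (RA) and SAG, an agonist of the Hedgehog pathway protein Smoothened, from 0 to 3 days in differentiation conditions (DDC), and NSCs were then collected by their surface protein prominin-1. The study follows how such NSCs change over time from making visceral motor neurons to making serotonergic neurons. Each of the 3 time points, 4.5DDC, 5.5DDC and 6.5DDC, has 3 replicate libraries, all of 1 genotype and 1 treatment, and no untreated or mutant culture is among the samples used here. The source names in the labels give the same samples as 4, 5 and 6 days, and the half-day values of the titles are used here.

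Growing axons and migrating neurons read guidance cues as attraction or repulsion through receptors on the growth cone. In the ventral neural tube the floor plate secretes netrin-1, which attracts commissural axons through Dcc, and Slits, which repel axons through Robo1 and Robo2 once they have crossed the midline. Semaphorins signal through plexins, with neuropilins as co-receptors for most class 3 members, and ephrins on 1 cell bind Eph receptors on its neighbour.

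Total counts per library ranged from 11066572 to 25506192, and the 72 genes together took between 0.713% and 1.52% of them. A count of 3, taken as the floor of detection, corresponds to 0.118 to 0.271 CPM (counts scaled to library size) in these libraries, a limit that covers counting error only. Replicate 1 stood apart from replicates 2 and 3. On the second principal component of all tested genes, which held 27.2% of the variance, the 3 libraries of replicate 1 lay between 23.9 and 54.5 and the other 6 between -44.6 and -3.12. Replicates 2 and 3 of 5.5DDC were the most alike, with a chi-square of their counts of 2.58 per degree of freedom. The other pairs within a time point gave 26 to 68.1, so this pair still differed by more than sampling noise and was kept as 2 libraries. Nothing in the labels says whether replicates were separate cultures, so the p-values measure the spread between these libraries, which may be technical.

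Marker genes were read in the same libraries. Of the 14 neural progenitor markers, all 14 were measured, led by Vim with a mean of 1791 FPKM (a level scaled to transcript length and library size), and Prom1, the gene for prominin-1, lay between 62.8 and 207 FPKM. Neuronal markers were also present. The summed level of the 13 measured neuron markers was 279 FPKM in replicate 1 of 4.5DDC and up to 785 FPKM in the others, 238, 922 and 930 FPKM in replicates 1 to 3 at 5.5DDC, and 502, 1062 and 1126 FPKM at 6.5DDC, so replicate 1 was the lowest library of each time point. Gap43 was the most abundant of them, with a mean of 121 FPKM, and none was at 0. The sum of the floor plate markers went the other way, although not each of its genes. The sum over 9 genes was 990, 500 and 605 FPKM at 4.5DDC, 1740, 1080 and 1098 FPKM at 5.5DDC, and 1725, 1406 and 1440 FPKM at 6.5DDC, with replicate 1 the highest each time and Sulf1 the most abundant at a mean of 375 FPKM. At 6.5DDC Corin was at 194, 40.7 and 54.5 FPKM in replicates 1 to 3, whereas Shh was at 222, 286 and 263 FPKM and Foxa2 at 64.1, 77.4 and 81.2 FPKM, both lowest in replicate 1. In bulk RNA, fewer cells of a type and less RNA per cell cannot be told apart, which holds for every gene below.

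All 72 genes had at least 1 count, 59 had a mean level of at least 1 FPKM and 23 of at least 10 FPKM. The levels were dominated by 3 secreted cues. Slit2 had a mean of 487 FPKM over the 9 libraries, Ntn1 381 FPKM and Slit1 319 FPKM, and together they made up between 49.5% and 65.9% of the summed level of the 72 genes in each library. The next were the ephrin gene Efnb3 (106 FPKM), the co-receptor gene Nrp2 (65 FPKM), Plxnb2 (63.6 FPKM), Ephb2 (56 FPKM), Slit3 (45.3 FPKM), Neo1 (37.3 FPKM), Nrp1 (35.1 FPKM), Plxna1 (34.1 FPKM) and Plxnb1 (29.7 FPKM). This order pools the time points, and many neighbours overlapped. Nrp2 at 4.5DDC lay below all libraries of Plxnb2, Ephb2, Slit3, Neo1, Plxna1 and Plxnb1, and at 6.5DDC above those of Plxnb2. Slit2, Ntn1 and Slit1 could not be ordered at 4.5DDC or 5.5DDC, whereas at 6.5DDC the lowest Slit2 library was above the highest Ntn1 library and the lowest Ntn1 library above the highest Slit1 library. The sum over the Slit ligands ranged from 479 to 1341 FPKM and that over the Robo receptors from 5.02 to 32.8 FPKM, so Slit transcripts exceeded Robo transcripts in every library. At the low end, Robo4, Ntn5, Epha6 and Plxnb3 had means between 0.00342 and 0.0826 FPKM and did not pass the filter on low counts.

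**Figure D1:**
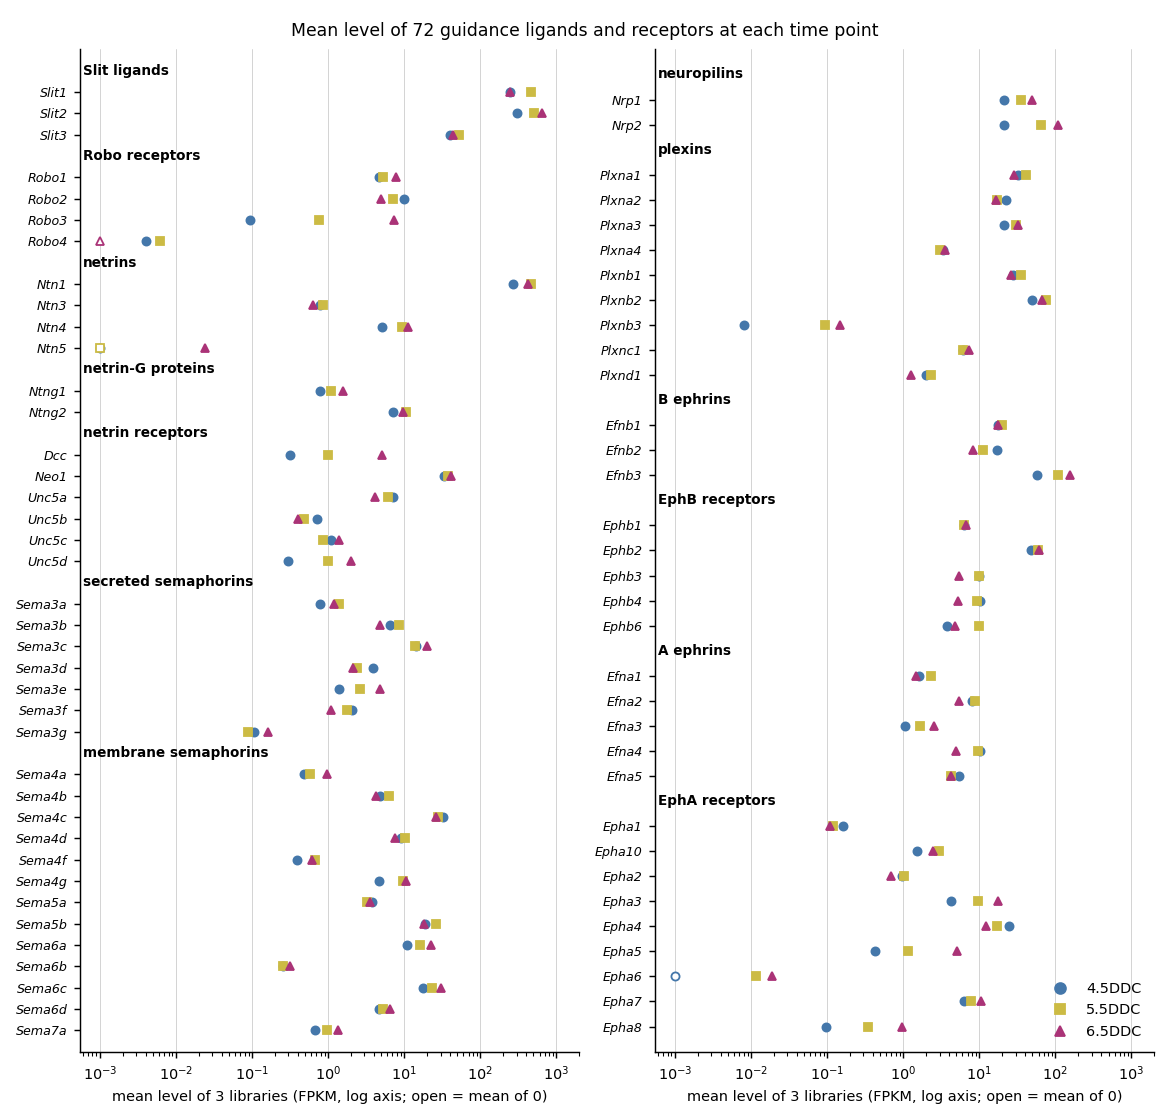
Mean level of each of the 72 genes in FPKM (log axis) at 4.5DDC (circles), 5.5DDC (squares) and 6.5DDC (triangles), each the mean of 3 libraries, grouped by family, with open symbols at the left edge for a mean of 0. Slit1, Slit2 and Ntn1 lie furthest to the right, and Robo3, Dcc, Epha5 and Epha8 are spread widest among the genes that were tested.

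The first comparison asks which of these genes differ between the start and the end of the sampled period. From 4.5DDC to 6.5DDC, 19 of the 68 tested genes changed (27.9%) in the quasi-likelihood test of edgeR, with p-values adjusted over all 14742 genes tested, of which 18.7% changed. Of the 19, 14 rose, against 9.21% of all genes, and 5 fell, against 9.53% of all genes. The genes that rose were Slit2, Robo3, Ntn1, Ntn4, Dcc, Unc5d, Sema3e, Sema4g, Sema6a, Nrp1, Nrp2, Efnb3, Epha3 and Epha10, and those that fell were Plxna2, Plxnd1, Efna4, Epha4 and Ephb4. The median log2 fold change of the 68 was 0.18, beside 0.004 over all genes. In 23 of the 68 (33.8%) the FPKM of the 3 libraries of 4.5DDC and of the 3 of 6.5DDC did not overlap, close to the 34.5% of all genes. The 3 called genes nearest the threshold were Efnb3 (adjusted p = 0.044), Ntn4 (adjusted p = 0.0393) and Ephb4 (adjusted p = 0.0377), and the nearest ones outside it were Efna3 (adjusted p = 0.0598), Efna2 (adjusted p = 0.0677) and Epha5 (adjusted p = 0.0713). In replicates 2 and 3 alone, 28 of 67 tested genes changed, 16 of them among the 19, beside 31.3% of all genes. All 19 had the same sign within replicate 1. These libraries also entered the fit that called the 19, so neither the 16 nor the shared sign is independent of that call. Leaving out 1 library lowered the count most for replicate 2 of 6.5DDC (8 genes), replicate 2 of 4.5DDC (9 genes) and replicate 1 of 4.5DDC (12 genes), with 1125, 1152 and 2213 of all genes called beside 2763 in the main fit. Nrp2, Sema3e, Sema6a, Dcc and Unc5d kept their calls in all 21 alternatives. Beside the libraries named with each gene below, limma voom removed the calls of Efnb3, Ephb4, Plxnd1, Robo3 and Sema4g, limma on FPKM these 5 and those of Epha10, Ntn4 and Plxna2, and the fit of the 6 libraries those of Efnb3, Ephb4, Ntn1, Ntn4, Plxna2, Plxnd1 and Sema4g.

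**Figure D2:**
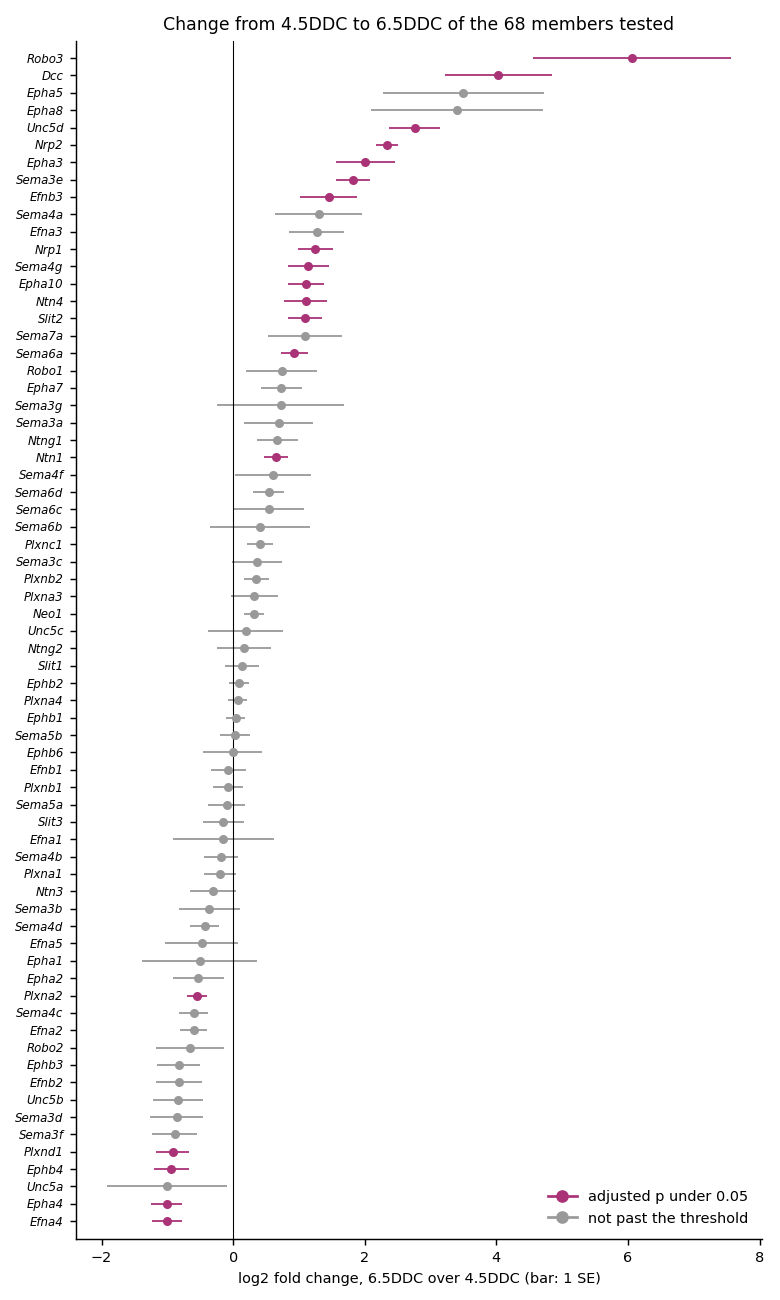
Log2 fold change of 6.5DDC over 4.5DDC for the 68 genes tested, ordered by size, with bars of 1 standard error and coloured points for an adjusted p under the threshold of 0.05. The widest bars belong to Robo3, Epha8 and Epha5, and 14 coloured points lie to the right of 0 and 5 to the left.

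Among the Slits, secreted repellents that bind Robo receptors, Slit2 rose and the levels of Slit1 and Slit3 were highest at 5.5DDC. Slit2 measured 376, 205 and 319 FPKM in replicates 1 to 3 at 4.5DDC, 637, 460 and 444 FPKM at 5.5DDC, and 774, 663 and 510 FPKM at 6.5DDC. In FPKM it was higher at each later time point within each replicate number, whereas in the tested counts replicate 1 did not increase from 5.5DDC to 6.5DDC (log2 fold change -0.0059). The libraries of 4.5DDC and 6.5DDC did not overlap. Over the whole period it gained 1.09 in log2 fold change (SE 0.26, n = 3 and 3, adjusted p = 0.0207). The call failed without replicate 2 or 3 of 4.5DDC or replicate 2 of 6.5DDC, with adjusted p between 0.0527 and 0.0755. Slit1 measured 340, 240 and 161 FPKM at 4.5DDC, 642, 369 and 380 FPKM at 5.5DDC, and 225, 176 and 337 FPKM at 6.5DDC. All 3 libraries of 5.5DDC lay above all those of the other time points, by a log2 fold change of 0.79 (SE 0.27, adjusted p = 0.223) over 4.5DDC and with one of -0.65 (SE 0.26, adjusted p = 0.238) from there to 6.5DDC, neither past the threshold. Slit3 measured 54.1, 34.4 and 31 FPKM, then 62, 43.6 and 50.5 FPKM, then 55.7, 34 and 42 FPKM, again with the top value of each replicate number at 5.5DDC and with replicate 1 the highest library throughout. Over the whole period its log2 fold change came to -0.15 (SE 0.31, adjusted p = 0.758) and that of Slit1 to 0.13 (SE 0.26, adjusted p = 0.749).

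The Robo receptors were at lower levels and differed between replicates. Robo3, which commissural axons need to cross the midline, measured 0.0186, 0.158 and 0.103 FPKM at 4.5DDC (2, 9 and 12 counts), 0.126, 0.964 and 1.16 FPKM at 5.5DDC (11, 56 and 72 counts), and 0.255, 5.58 and 16.2 FPKM at 6.5DDC (13, 502 and 1339 counts). Replicates 2 and 3 were far above replicate 1 at 5.5DDC and 6.5DDC, and every replicate was higher at each later time point. The rise from 4.5DDC to 6.5DDC had a log2 fold change of 6.06 (SE 1.5, adjusted p = 0.0228), which was 2.30 within replicate 1 and 6.05 in replicates 2 and 3 alone (adjusted p = 0.0005, with 0.000331 to 0.204 over the 21 alternatives). Over the 21 alternatives the log2 fold change of Robo3 ranged from 2.26 to 6.63. The call was lost without any 1 library of 4.5DDC or without replicate 2 or 3 of 6.5DDC (adjusted p from 0.0544 to 0.0815), and limma voom did not make it (adjusted p = 0.204). Robo1 measured 2.55, 6.12 and 5.16 FPKM at 4.5DDC, 2.42, 7.03 and 6.46 FPKM at 5.5DDC, and 2.75, 9.47 and 11.4 FPKM at 6.5DDC (log2 fold change over the whole period 0.74, SE 0.54, adjusted p = 0.347). Robo2 measured 4.99, 11.4 and 13 FPKM, then 2.47, 6.92 and 11.9 FPKM, then 3.45, 6.26 and 5.22 FPKM (log2 fold change -0.66, SE 0.52, adjusted p = 0.392). Neither passed the threshold in the 9 libraries without a block. Both did in replicates 2 and 3 alone, Robo1 with a log2 fold change of 0.84 (adjusted p = 0.00497, with 0.00497 to 0.652 over the 21 alternatives) and Robo2 with one of -0.65 (adjusted p = 0.0233, with 0.0233 to 0.666). All 3 Robo genes were lowest in replicate 1 at each time point, as was the sum of the neuron markers. The sums of the visceral motor neuron markers and of the mesenchyme and neural crest markers were also lowest there. The part of these markers in the values of the Robo genes was not tested.

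The gene for netrin-1, a secreted attractant, was high throughout. Ntn1 measured 329, 251 and 215 FPKM at 4.5DDC, 543, 406 and 426 FPKM at 5.5DDC, and 419, 382 and 455 FPKM at 6.5DDC. Every library of the later time points lay above those of 4.5DDC, and the change to 6.5DDC had a log2 fold change of 0.65 (SE 0.18, adjusted p = 0.032). The call was lost when any 1 library other than replicate 1 of 4.5DDC or replicate 1 of 5.5DDC was left out, with adjusted p from 0.0501 to 0.108. Ntn4, a netrin of basement membranes, measured 2.82, 5.81 and 6.61 FPKM, then 7.15, 8.73 and 12 FPKM, then 7.61, 11.9 and 13.7 FPKM (log2 fold change to 6.5DDC 1.10, SE 0.32, adjusted p = 0.0393). It too was a call near the threshold, lost without any 1 of 6 libraries, namely replicates 1 and 2 of 4.5DDC, 2 and 3 of 5.5DDC, and 2 and 3 of 6.5DDC (adjusted p from 0.0605 to 0.119). Of the 8 floor plate markers tested, 4 rose from 4.5DDC to 6.5DDC, Shh, Spon1 and Sulf1 among them, and 0 fell (50%, beside 18.7% of all genes). Spon1 had a log2 fold change of 1.54 (adjusted p = 0.00515). In replicates 2 and 3 alone all 8 rose. Of all genes 31.3% changed there in either direction. Of the 14522 tested both there and in the 9 libraries, 2370 rose and 2165 fell. The part of the floor plate markers in the values of Slit2 and Ntn1 was not tested.

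Of the 6 netrin receptor genes, Dcc and Unc5d changed (33.3%, beside 18.7% of all genes) and both rose. Dcc, the attractive receptor for netrin-1, measured 0.145, 0.508 and 0.3 FPKM at 4.5DDC (17, 38 and 30 counts), 0.312, 1.28 and 1.36 FPKM at 5.5DDC (54, 98 and 105 counts), and 1.19, 5.59 and 8.74 FPKM at 6.5DDC (101, 629 and 934 counts). Each replicate number was higher at each later time point, and the 6.5DDC library of replicate 1 was below both other 5.5DDC libraries. Over the whole period Dcc gained 4.03 in log2 fold change (SE 0.81, adjusted p = 0.0101). It gained 2.97 within replicate 1 and 4.11 in replicates 2 and 3 alone (adjusted p = 0.000284, with 1.15e-07 to 0.039 over the 21 alternatives). Unc5d, a receptor of the repulsive Unc5 family, measured 0.279, 0.254 and 0.345 FPKM, then 0.651, 1.36 and 1.03 FPKM, then 1.06, 2.65 and 2.34 FPKM. Its libraries did not overlap between 4.5DDC and either later time point (log2 fold change to 6.5DDC 2.76, SE 0.39, adjusted p = 0.00261). Over the 21 alternatives the log2 fold change of Unc5d ranged from 1.18 to 3.06. Unc5b ran the other way, at 0.609, 0.926 and 0.633 FPKM, then 0.303, 0.568 and 0.582 FPKM, then 0.221, 0.465 and 0.511 FPKM, with a log2 fold change of -0.84 that did not pass without a block (SE 0.38, adjusted p = 0.144) and had an adjusted p from 0.0448 to 0.362 over the 21 alternatives, past the threshold in 1 of them. Neo1, which binds netrins and repulsive guidance molecules, was the most abundant of these receptors. It measured 36.5, 27.8 and 34.6 FPKM, then 39.4, 35.4 and 37.3 FPKM, then 36.5, 45 and 43.3 FPKM (log2 fold change 0.32, SE 0.15, adjusted p = 0.153). Unc5a and Unc5c, the remaining receptors of the family, had means of 5.74 and 1.11 FPKM and did not pass the threshold.

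Neuropilins gave the change with the smallest adjusted p among the 68 genes. Nrp2, a co-receptor for class 3 semaphorins such as Sema3f, measured 21.4, 21.8 and 21.1 FPKM at 4.5DDC, 52.2, 71.6 and 71.6 FPKM at 5.5DDC, and 117, 108 and 100 FPKM at 6.5DDC. The 3 time points did not overlap, and the spread within a time point was small beside the differences between them. The rise to 6.5DDC was 5.05-fold (log2 fold change 2.34, SE 0.17, adjusted p = 0.000246). Nrp1, a co-receptor for Sema3a and for vascular endothelial growth factor, measured 26.4, 15.4 and 20.5 FPKM, then 32.7, 36.5 and 36.6 FPKM, then 67.7, 43.8 and 36.4 FPKM. All its libraries of 5.5DDC and 6.5DDC lay above those of 4.5DDC (log2 fold change to 6.5DDC 1.25, SE 0.27, adjusted p = 0.0128), a call that did not survive leaving out replicate 2 of 4.5DDC (adjusted p = 0.0513, with 0.000134 to 0.0513 over the 21 alternatives). Summed, the neuropilins took 2.82% of the level of the 72 genes at 4.5DDC, 4.29% at 5.5DDC and 6.88% at 6.5DDC.

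**Figure D3:**
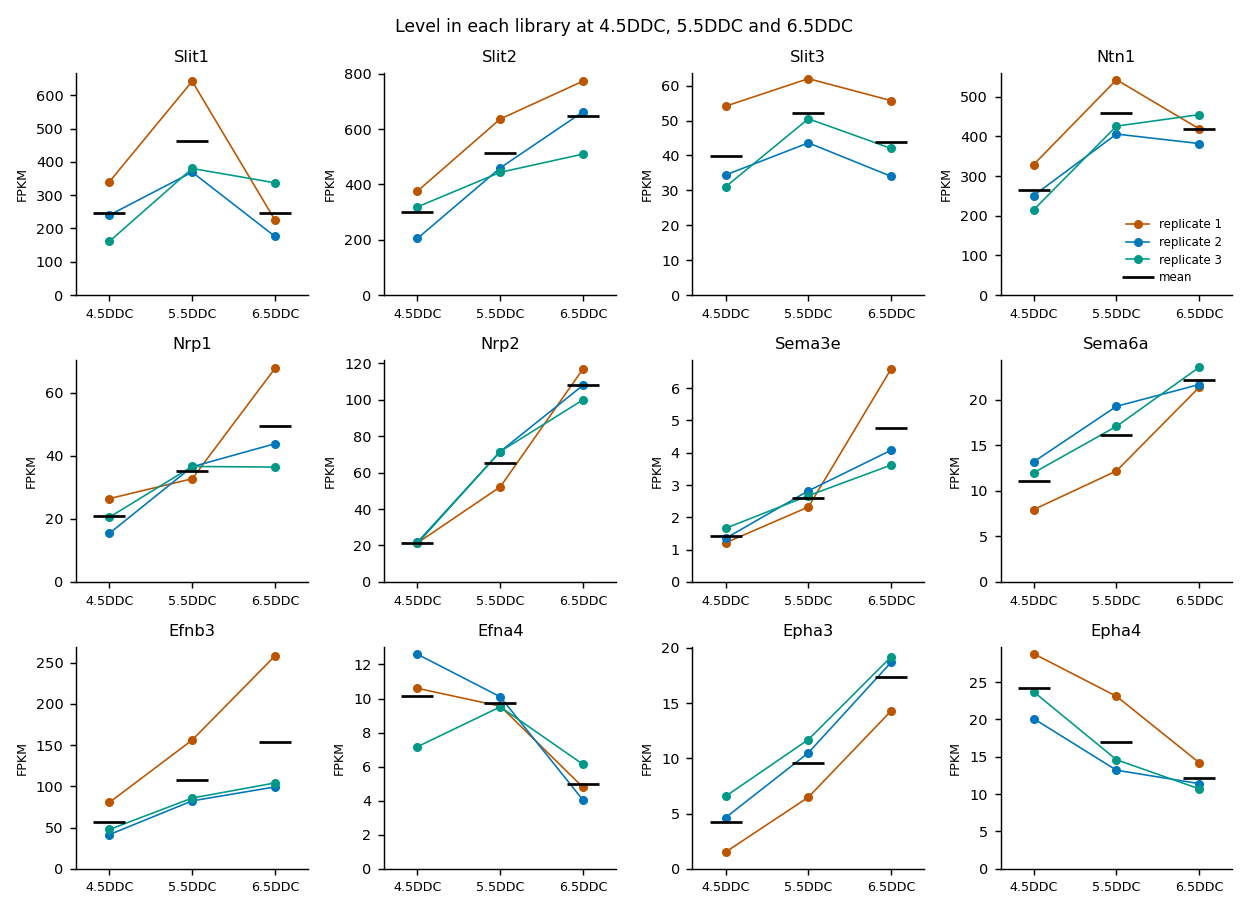
Level in FPKM of 12 of the genes in each library at 4.5DDC, 5.5DDC and 6.5DDC, with lines that join libraries of the same replicate number and bars for the mean of 3. Nrp2 lies between 21.1 and 21.8 FPKM at 4.5DDC and between 100 and 117 FPKM at 6.5DDC, Slit1 has its top values at 5.5DDC, and replicate 1 is the highest library of Efnb3 at every time point.

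Semaphorins were at moderate or low levels, with 3 of the 20 rising to 6.5DDC and none falling, beside the 18.7% of all genes that changed. Sema3e, a secreted semaphorin that binds Plxnd1 without a neuropilin, measured 1.21, 1.35 and 1.66 FPKM at 4.5DDC, 2.32, 2.82 and 2.67 FPKM at 5.5DDC, and 6.6, 4.08 and 3.62 FPKM at 6.5DDC. The time points did not overlap (log2 fold change to 6.5DDC 1.82, SE 0.26, adjusted p = 0.0025). Sema6a, a membrane-bound ligand of Plxna2 and Plxna4, measured 7.95, 13.2 and 12 FPKM, then 12.2, 19.3 and 17.1 FPKM, then 21.4, 21.7 and 23.6 FPKM, with all 6.5DDC libraries above all earlier ones (log2 fold change 0.93, SE 0.21, adjusted p = 0.0149). Sema4g, also bound to the membrane, measured 5.45, 5.23 and 3.5 FPKM, then 8.93, 9.5 and 10.6 FPKM, then 6.62, 7.93 and 16.9 FPKM (log2 fold change 1.14, SE 0.31, adjusted p = 0.0313). Its call was lost without any 1 library of 4.5DDC or without replicate 3 of 6.5DDC (adjusted p from 0.0504 to 0.0888), and also in 4 other alternatives (0.0571 to 0.0692). The most abundant semaphorin was Sema4c, a ligand of Plxnb2, at a mean of 29.1 FPKM, and Sema3c led the secreted class at 16 FPKM. Of the 7 secreted genes 4 had a log2 fold change above 0 and 3 below it, and of the 13 membrane-bound ones 9 were above and 4 below.

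Of the 8 plexins tested, 2 changed (25%, beside 18.7% of all genes) and both fell. Plxna2 measured 22.4, 17.9 and 27.8 FPKM at 4.5DDC, 15, 18.1 and 18.5 FPKM at 5.5DDC, and 16.6, 16 and 16.8 FPKM at 6.5DDC, with every 6.5DDC library below those of 4.5DDC (log2 fold change -0.55, SE 0.15, adjusted p = 0.0318). The call was lost without any 1 library other than replicate 2 of 4.5DDC and replicate 1 of 5.5DDC (adjusted p from 0.055 to 0.105), and also in 4 other alternatives (0.0525 to 0.118). Plxnd1 measured 2.32, 2.54 and 1.09 FPKM, then 2.12, 1.64 and 3.17 FPKM, then 0.823, 1.68 and 1.31 FPKM, values that overlap between 4.5DDC and 6.5DDC (log2 fold change -0.92, SE 0.25, adjusted p = 0.0345). It was the call lost most often, in 12 of the 21 alternatives, among them those without replicate 1 or 2 of 4.5DDC, 2 or 3 of 5.5DDC, or 1 or 2 of 6.5DDC (adjusted p from 0.0556 to 0.119) and the fit of replicates 2 and 3 alone (adjusted p = 0.0898, with 0.00833 to 0.342 over the 21 alternatives). Neither of these plexins passed in replicates 2 and 3 alone. The abundant plexins did not pass. Plxnb2 measured 56.2, 52.1 and 37.8 FPKM, then 83.4, 71.8 and 70.5 FPKM, then 66.2, 60.9 and 73.1 FPKM (log2 fold change to 6.5DDC 0.35, SE 0.19, adjusted p = 0.226). Plxna1, a receptor that pairs with neuropilins, measured 36.4, 36.8 and 24.3 FPKM, then 45.2, 40.7 and 37.3 FPKM, then 18.7, 26.5 and 40.6 FPKM (log2 fold change -0.20, SE 0.24, adjusted p = 0.587). Plxnb1, the receptor for Sema4d, measured 31.5, 29.7 and 22.1 FPKM, then 46.5, 29.8 and 29.1 FPKM, then 22.2, 22.9 and 33.5 FPKM (log2 fold change -0.074, SE 0.23, adjusted p = 0.848).

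Among the ephrins, Efnb3 rose and Efna4 fell. Efnb3, a transmembrane ephrin known from the spinal midline, measured 80.4, 41.4 and 47.6 FPKM at 4.5DDC, 156, 82.3 and 85.7 FPKM at 5.5DDC, and 258, 99.2 and 104 FPKM at 6.5DDC. Replicate 1 was the highest library of each time point, as it was for the sum of the floor plate markers. The much lower sums of the pluripotency and of the endoderm markers were highest there too. The part of these markers in this was not tested. The log2 fold change to 6.5DDC was 1.45 (SE 0.43, adjusted p = 0.044), with 1.74 within replicate 1 and 1.14 in replicates 2 and 3 alone (adjusted p = 0.00158, with 0.00105 to 0.153 over the 21 alternatives). The call in the 9 libraries failed without replicate 2 or 3 of 4.5DDC, replicate 2 or 3 of 5.5DDC, or replicate 1 or 2 of 6.5DDC (adjusted p from 0.0575 to 0.153), and the log2 fold change was 0.81 without replicate 1 of 6.5DDC, the lowest of the 21 alternatives. Efna4, which is anchored to the membrane by a lipid, measured 10.6, 12.6 and 7.17 FPKM, then 9.55, 10.1 and 9.51 FPKM, then 4.78, 4.03 and 6.13 FPKM, with 6.5DDC below both earlier time points in every library (log2 fold change -1.01, SE 0.23, adjusted p = 0.0157). Leaving out replicate 2 of 4.5DDC or replicate 2 of 6.5DDC removed this call (adjusted p from 0.061 to 0.0657). Efnb2, a ligand of Ephb4, measured 19.8, 17.7 and 13.9 FPKM, then 15.1, 8.79 and 9.39 FPKM, then 13.7, 5.9 and 5.15 FPKM. In FPKM it was lower at each later time point within each replicate number, whereas in the tested counts replicate 1 was higher at 6.5DDC than at 5.5DDC (log2 fold change 0.37). Over the whole period the change did not pass in the 9 libraries (log2 fold change -0.83, SE 0.35, adjusted p = 0.126) and was -0.12 within replicate 1 and -1.41 in replicates 2 and 3 alone (adjusted p = 0.000882, with 0.000882 to 0.335 over the 21 alternatives).

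The Eph receptors are receptor tyrosine kinases that bind ephrins. Of the 8 EphA genes tested 2 rose and 1 fell (37.5%), and of the 5 EphB genes 1 fell (20%), beside 18.7% of all genes. Epha3 rose and measured 1.51, 4.63 and 6.56 FPKM at 4.5DDC, 6.48, 10.5 and 11.7 FPKM at 5.5DDC, and 14.3, 18.7 and 19.2 FPKM at 6.5DDC. All libraries of 6.5DDC lay above all earlier ones (log2 fold change 2.01, SE 0.45, adjusted p = 0.0159), and leaving out replicate 2 of 4.5DDC or replicate 2 of 6.5DDC removed the call (adjusted p from 0.0538 to 0.0597). Epha4, a receptor for ephrins of both classes, fell and measured 28.8, 20.1 and 23.7 FPKM, then 23.1, 13.2 and 14.6 FPKM, then 14.2, 11.4 and 10.7 FPKM (log2 fold change -1.01, SE 0.24, adjusted p = 0.0189). Its call failed without replicate 1 of 4.5DDC, replicate 2 of 6.5DDC or replicate 3 of 6.5DDC (adjusted p from 0.0506 to 0.0739). Epha10, whose kinase domain lacks activity, measured 1.88, 1.84 and 0.902 FPKM, then 2.25, 2.98 and 3.52 FPKM, then 2.11, 2.19 and 3.13 FPKM. It rose with a log2 fold change of 1.11 (SE 0.27, adjusted p = 0.0214), a call that failed without replicate 1 or 3 of 4.5DDC or replicate 3 of 6.5DDC (adjusted p from 0.0518 to 0.0581). On the FPKM scale the change was smaller and did not pass, at 0.47 with limma on log2(FPKM + 1) (adjusted p = 0.166) and 0.69 on log2(FPKM + 0.1) (adjusted p = 0.173), and the 21 alternatives ranged from 0.00112 to 0.173 in adjusted p. Ephb4, known from vessels, measured 11.1, 13.1 and 6.69 FPKM, then 11.8, 8.17 and 7.93 FPKM, then 5.31, 3.87 and 6.77 FPKM (log2 fold change -0.94, SE 0.27, adjusted p = 0.0377). Here the call failed without replicate 1 or 2 of 4.5DDC, 2 or 3 of 5.5DDC, or 1 or 2 of 6.5DDC (adjusted p from 0.054 to 0.132) and in replicates 2 and 3 alone (adjusted p = 0.0615, with 0.00833 to 0.132 over the 21 alternatives). Ephb2, the most abundant Eph gene, measured 46.7, 44.8 and 51.1 FPKM, then 50, 59.2 and 68.9 FPKM, then 72.4, 55.5 and 55.7 FPKM, with a log2 fold change of 0.086 in counts (SE 0.15, adjusted p = 0.718).

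For 3 further Eph genes the replicates disagreed in level. Epha5 measured 0.0205, 0.407 and 0.845 FPKM at 4.5DDC (2, 29 and 73 counts), 0.154, 1.72 and 1.55 FPKM at 5.5DDC (21, 117 and 99 counts), and 0.66, 6.77 and 7.65 FPKM at 6.5DDC (49, 665 and 727 counts). Each replicate number was higher at each later time point, from starting levels that differed widely, and the pooled test gave a log2 fold change of 3.50 (SE 1.22, adjusted p = 0.0713). The change was 4.10 within replicate 1 and 3.41 in replicates 2 and 3 alone (adjusted p = 0.000515, with 0.000373 to 0.189 over the 21 alternatives), and it passed in 6 of these. Without replicate 3 of 4.5DDC the log2 fold change was 4.59 and without replicate 1 of 4.5DDC 2.90, neither past the threshold. The 6 that passed include the fits without replicate 1 of 5.5DDC and without replicate 1 of 6.5DDC. Epha8 measured 0.0279, 0.193 and 0.0689 FPKM, then 0.0523, 0.492 and 0.486 FPKM, and at 6.5DDC was listed at 0 in replicate 1 (2 counts) beside 0.533 and 2.37 FPKM in the others (log2 fold change 3.40, SE 1.31, adjusted p = 0.0967). Within replicate 1 it did not increase (log2 fold change -0.014), beside 3.48 in replicates 2 and 3 alone (adjusted p = 0.011, with 0.011 to 0.378 over the 21 alternatives). Without replicate 3 of 6.5DDC the change was 1.67, and over the 21 alternatives it ranged from 0.66 to 4.29. Epha7 measured 4.05, 7.55 and 7.01 FPKM, then 4.2, 9.19 and 9.92 FPKM, then 6.62, 12.2 and 13.1 FPKM (log2 fold change 0.73, SE 0.31, adjusted p = 0.128). It passed in replicates 2 and 3 alone with a log2 fold change of 0.67 (adjusted p = 0.0112, with 0.0105 to 0.314 over the 21 alternatives). All 3 were lowest in replicate 1 at each time point, like Dcc and the sum of the neuron markers. Of the 13 neuron markers, Map2 and Syt1 rose from 4.5DDC to 6.5DDC and none fell (15.4%, beside 18.7% of all genes). In replicates 2 and 3 alone 5 of the 13 rose and 0 fell. Of all genes 31.3% changed there in either direction. Of the 14522 tested both there and in the 9 libraries, 2370 rose and 2165 fell. The sums of the visceral motor neuron markers and of the mesenchyme and neural crest markers were also lowest in replicate 1 each time. Unc5d was lowest in replicate 2 at 4.5DDC and in replicate 1 at the later time points. The part of any of these markers in the values of Dcc, Robo3, Epha5 and Unc5d was not tested.

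**Figure D4:**
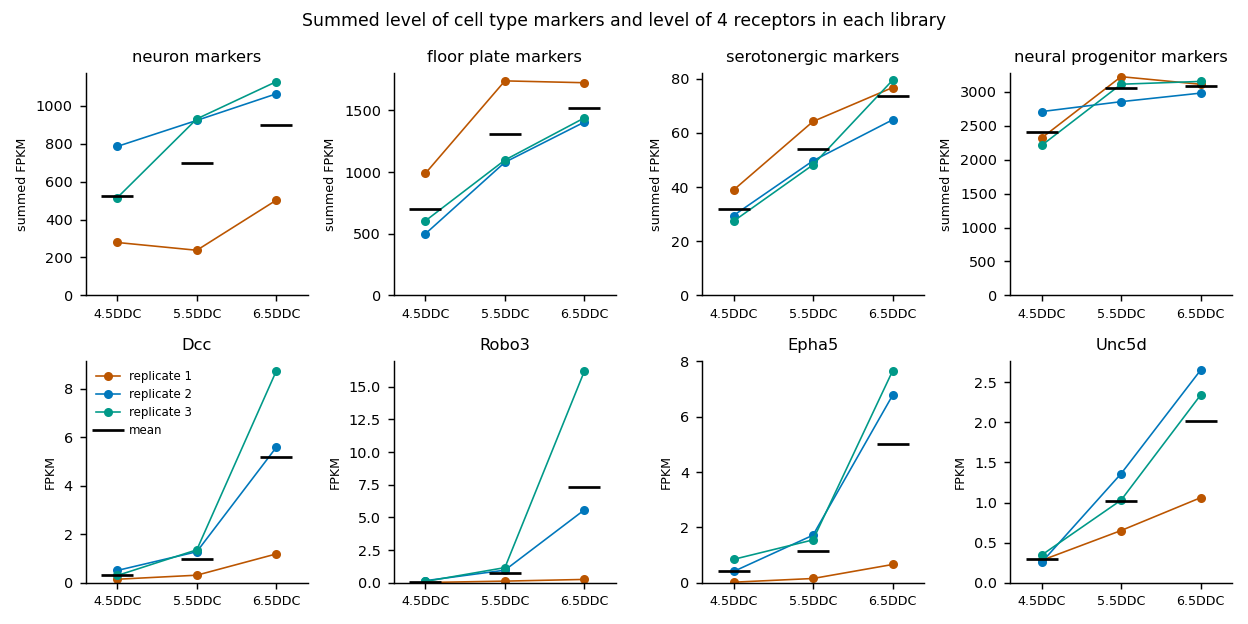
Upper row, summed FPKM of the neuron, floor plate, serotonergic and neural progenitor markers in each library at the 3 time points, and lower row, FPKM of Dcc, Robo3, Epha5 and Unc5d, with lines that join libraries of the same replicate number and bars for the mean of 3. Replicate 1 is lowest for the sum of the neuron markers and highest for that of the floor plate markers at every time point, and at 6.5DDC it is the lowest library of all 4 receptors.

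The shorter intervals ask when the changes occurred. From 4.5DDC to 5.5DDC, 16 of the 68 genes had an unadjusted p under 0.05, beside 2275 of all 14742 genes. After adjustment 1 of the 68 genes changed, beside 0.0746% of all genes. That gene was Nrp2, with a log2 fold change of 1.55 (SE 0.16, adjusted p = 0.0114), a call that failed without replicate 2 of 4.5DDC, replicate 3 of 4.5DDC or replicate 3 of 5.5DDC (adjusted p from 0.0592 to 0.0934). Across these intervals the libraries of replicate 1 deviated together. Those of replicates 2 and 3 correlated about as well with each other's libraries as with those of their own number. Once the replicate number entered as a block 6 genes changed, all upward, beside 1.44% of all genes. Most calls over all genes were upward too, with 187 higher and 25 lower. They were Nrp2 (adjusted p = 0.0146), Unc5d (adjusted p = 0.0304), Robo3 (adjusted p = 0.0391), Efnb3 (adjusted p = 0.0405), Slit2 (adjusted p = 0.0441) and Dcc (adjusted p = 0.0464). From 5.5DDC to 6.5DDC, 0 of the 68 genes passed in edgeR, beside 0.224% of all genes. An unadjusted p under 0.05 was found for 11, beside 2733 of all 14742 genes, limma voom called 0, and DESeq2 called 6, beside 662 of all genes. With the block 3 genes changed, beside 1.32% of all genes: Dcc with a log2 fold change of 2.29, Epha5 with 2.20 and Robo3 with 2.84, each with an adjusted p = 0.0225. Whether a change differed between the intervals was tested directly, and 0 of the 68 genes passed in edgeR, as did 0% of all genes. Of the 68, 8 had an unadjusted p under 0.05, beside 701 of all 14742 genes, led by Slit1 with a difference of -1.44 (SE 0.45, adjusted p = 0.76), and DESeq2 and limma voom also called 0. The data thus give no gene whose change can be placed in one interval and not in the other.

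Beyond the ligands and receptors themselves, 42 intracellular guidance genes and 32 further cues, receptors and co-receptors were read. Of the 41 intracellular genes tested, 4 rose and 1 fell from 4.5DDC to 6.5DDC (12.2%, beside 18.7% of all genes). The kinase gene Pak3 rose with a log2 fold change of 1.51 (adjusted p = 0.00499), Ablim1 with one of 1.22 (adjusted p = 0.0478), Pak1 with one of 0.82 (adjusted p = 0.0246), and Enah, an actin regulator, with one of 0.50 (adjusted p = 0.0357). Tiam1, an exchange factor for Rac, fell in the tested counts with a log2 fold change of -1.09 (adjusted p = 0.00396). Its level did not show this fall, with a mean of 6.81 FPKM at the first time point, 8.05 FPKM at the next and 6.52 FPKM at the last, and the cause of the difference between the deposited scales was not tested. Of the 31 other cues and receptors tested, 2 rose and 0 fell (6.45%), Cntn1 with a log2 fold change of 2.16 (adjusted p = 0.00396) and Nrcam with one of 1.62 (adjusted p = 0.00737), both cell adhesion genes of axons. In replicates 2 and 3 alone 9 of the 41 and 10 of the 31 changed, beside 31.3% of all genes. In the shorter intervals 0 genes of either list passed in edgeR without a block, and with the replicate number as a block 1 gene of the other list did, from 5.5DDC to 6.5DDC. At an unadjusted p under 0.05 there were 2 and 3 genes of the intracellular and of the other list from 4.5DDC to 5.5DDC, beside 2275 of all 14742 genes, and 6 and 5 from 5.5DDC to 6.5DDC, beside 2733.

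Marker lists of cell types were read over the same period, in which 18.7% of all genes changed, 9.21% upward and 9.53% downward. Of 8 serotonergic markers, 6 rose from 4.5DDC to 6.5DDC and 1, Ddc, fell (87.5%). Their sum, led by Slc18a2, was 38.9, 29.5 and 27.4 FPKM at 4.5DDC and 76.7, 64.8 and 79.4 FPKM at 6.5DDC. Of the 9 visceral motor neuron markers tested, 2 fell and 0 rose (22.2%), with 4 of the 9 at a log2 fold change above 0. Phox2a fell with a log2 fold change of -2.15 (adjusted p = 0.01) and Isl1 with one of -2.44 (adjusted p = 0.00173). Of 14 progenitor markers, Prom1 rose and Sox3, Nkx6-1 and Nkx6-2 fell (28.6%). In each library, each list named next summed to less than the serotonergic and the visceral motor neuron list. The mesenchyme and neural crest list, led by Col3a1, summed to between 7.93 and 16.6 FPKM at 4.5DDC and between 14.8 and 54.4 FPKM at 6.5DDC. Twist1 was the 1 of its 8 tested genes that rose (12.5%). The endothelial list summed to between 1.48 and 8.76 FPKM, led by Cdh5, with Kdr the 1 of 5 that rose (20%). Pluripotency genes summed to between 2.44 and 6.49 FPKM, led by Klf4, endoderm genes to between 0.783 and 12.9 FPKM, led by Gata4, and oligodendrocyte precursor genes to between 1.17 and 13.2 FPKM, led by Olig2, and 0 of the 2, 2 and 4 tested genes of these lists passed (0, 0 and 3 at an unadjusted p under 0.05). Sox10, Cspg4, Foxd3, Emcn, Nanog, Afp and Foxa3 had means under 0.1 FPKM. The part of these cell types in the values of the guidance genes was not tested.

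All 72 genes were found by name in the GENCODE annotation, release M21, of GRCm38, and some lie close together. Chromosome 9 holds 8 of them, Robo3 and Robo4 among them, and chromosome 3 holds 7, of which Efna1, Efna3 and Efna4 lie within chr3:89271733-89338028. Chromosome 5 also holds 7, among them Slit2 and the class 3 semaphorin genes Sema3a, Sema3c, Sema3d and Sema3e. Slit2 spans chr5:47983138-48307733 on the plus strand, Nrp2 chr1:62703285-62818695 on the plus strand, Robo3 chr9:37415669-37433246 on the minus strand, Ntn1 chr11:68209364-68400823 on the minus strand, Unc5d chr8:28646717-29219636 on the minus strand and Sema3e chr5:14025276-14256689 on the plus strand. All 72 genes are annotated as protein-coding. Genes on the opposite strand covered 10.7% of the exonic bases of Plxna1 and 10.5% of those of Efna4, and at most 2.68% for the other genes given by library above. Whether the counting used the strand is not given in the sources used here, so for Plxna1 and Efna4 reads of the opposite gene may be included.

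Promoters are shown for Slit2, Nrp2 and Robo3, the most abundant gene, the gene with the smallest adjusted p and the gene with the largest log2 fold change. The RefSeq promoter table of GRCm38.p6 gives 300 bases for each, 250 before the start and 50 after it, and held 78 such windows for 62 of the 72 genes. Capitals mark matches on either strand to 3 motifs that do not overlap one another here: a Gli motif (GACCACCCA), an E-box (CANNTG) and a homeodomain motif (TAATTA). The windows lie at chr5:47982905-47983204 on the plus strand for Slit2, chr1:62703067-62703366 on the plus strand for Nrp2 and chr9:37433126-37433425 on the minus strand for Robo3.
Slit2: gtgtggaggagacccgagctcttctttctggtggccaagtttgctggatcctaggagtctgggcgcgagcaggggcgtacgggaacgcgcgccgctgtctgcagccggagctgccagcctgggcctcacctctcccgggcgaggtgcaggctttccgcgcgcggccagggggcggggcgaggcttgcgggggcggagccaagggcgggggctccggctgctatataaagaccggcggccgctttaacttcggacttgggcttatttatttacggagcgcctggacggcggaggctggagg
Nrp2: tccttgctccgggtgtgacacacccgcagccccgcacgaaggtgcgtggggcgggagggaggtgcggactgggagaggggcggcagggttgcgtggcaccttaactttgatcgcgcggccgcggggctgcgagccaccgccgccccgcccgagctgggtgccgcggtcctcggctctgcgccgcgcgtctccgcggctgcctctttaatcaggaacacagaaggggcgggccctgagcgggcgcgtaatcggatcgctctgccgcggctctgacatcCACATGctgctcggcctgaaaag
Robo3: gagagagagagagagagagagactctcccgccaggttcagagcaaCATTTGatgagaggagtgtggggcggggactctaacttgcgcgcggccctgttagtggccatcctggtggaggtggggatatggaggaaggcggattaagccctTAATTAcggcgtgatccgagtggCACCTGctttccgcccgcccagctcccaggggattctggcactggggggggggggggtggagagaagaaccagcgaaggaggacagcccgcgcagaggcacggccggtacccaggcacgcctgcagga
The Slit2 window held no match, that of Nrp2 held 1 E-box, and that of Robo3 held 2 E-boxes and 1 homeodomain motif. Over all 32851 promoters of this length, 0.253% held the Gli motif, 72.3% an E-box and 5.29% the homeodomain motif. Of the 78 windows of these genes 0, 39 and 3 held them (0%, 50% and 3.85%). The windows had a median GC content of 64.2%, beside 52.7% over all promoters. These matches describe letters in the windows only.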

How the data were processed

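RNA of 9 libraries was sequenced after polyA selection, and samples were grouped by the time point in their titles. The authors mapped reads to GRCm38 with TopHat2 2.0.4 and counted them per gene with HTSeq 0.6.1, and the deposited values are expected counts in the sense that those of 98 symbols, 2 of them members (Efna5 and Ntng1), are not whole. They had been taken to be whole counts when the tests were chosen, and were rounded. The authors computed the deposited FPKM with Cufflinks 2.1.1, used here as levels. The deposited log2 values, made by the authors with limma voom, matched log2 values recomputed from the counts to within 4.97e-14 and were not tested. The annotation release and strand setting are not given in the sources used here.

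Members were the symbols that match names of the families, and members and lists were chosen with earlier results of these data known. With edgeR 4.0.16 (R 4.3.3), genes were filtered by filterByExpr (14742 kept), scaled by TMM and fitted in 1 quasi-likelihood model of time point with 6 residual degrees of freedom. P-values were adjusted over all genes by the Benjamini-Hochberg method, with a threshold of 0.05. The fit was first tested on simulated data. Genes given in every library are those that passed in any comparison, without or with the replicate number as a block, and the 12 with the highest mean FPKM. Libraries of the same number correlated in their deviations from the time point means by 0.743, 0.386 and 0.452 between 4.5DDC and 5.5DDC and by 0.454, 0.367 and 0.197 between 5.5DDC and 6.5DDC, so the numbers were taken to pair the libraries in these intervals, although replicates 2 and 3 correlated about as well with each other's libraries (0.291 and 0.39, then 0.225 and 0.405). Between 4.5DDC and 6.5DDC they did not (0.383, -0.0396 and -0.215). Alternatives used other scaling (RLE, upper quartile, library totals), no filter or a stricter one (CPM of at least 1 in 3 libraries), limma 3.58.1 voom, DESeq2 1.42.0, limma on log2(FPKM + 1) and log2(FPKM + 0.1), the 6 libraries compared, a replicate block, replicates 2 and 3 alone, and each library left out. Tubb3, Slc18a3 and Arhgap35 from the lists were not analysed here, and some marker results are not reported here.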

Additional observations from a re-analysis of the deposited data

How the results depend on the processing

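From 4.5DDC to 5.5DDC the count of 1 gene became 6 with the replicate block, 5 with DESeq2, 7 in replicates 2 and 3 alone and 0 in a fit of only the 6 libraries compared, beside 212, 495, 485 and 1 of all genes and 11 in the main fit. It lay between 0 and 1 when 1 library was left out. From 5.5DDC to 6.5DDC the count of 0 became 3 with the replicate block, 6 with DESeq2 and 4 in replicates 2 and 3 alone, beside 195, 662 and 728 of all genes and 33 in the main fit. From 4.5DDC to 6.5DDC the count of 19 became 12 with limma on log2(FPKM + 1), 11 on log2(FPKM + 0.1) and 12 in the 6 libraries compared, beside 2462, 2469 and 1937 of all genes and 2763 in the main fit. It lay between 8 and 21 when 1 library was left out, beside 1125 to 3132 of all genes. With the replicate block it was 26, beside 23.2% of all genes, although the numbers do not pair these libraries. The 7 gained were Efnb2, Epha5, Epha7, Epha8, Robo1, Robo2 and Unc5b. This block gave 8 of the 41 intracellular genes and 8 of the 31 other cues and receptors, (19.5% and 25.8%, beside the 23.2% of all genes), and 5 and 2 changed without it. The count was 14 with limma voom and 23 with DESeq2, beside 2660 and 3674 of all genes, and the 3 other scalings and the stricter filter kept the same 19. The count of members whose change differs between the intervals was 0 in all its alternatives, and over all genes it was 1 without replicate 2 of 5.5DDC, 2 without replicate 1 of 6.5DDC and 0 in the others.

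Of the 33 genes given by library, 4 had values with the opposite sign from 4.5DDC to 6.5DDC, none past the threshold, and signs of the other genes and of the shorter intervals are outside this tally. The log2 fold change of Plxna1 was 0.09 in replicates 2 and 3 alone and 0.0087 without replicate 1 of 6.5DDC, and at the other extreme -0.49 without replicate 3 of 6.5DDC. That of Plxnb1 was 0.11 in replicates 2 and 3 alone, 0.024 without replicate 1 of 4.5DDC, and 0.0082 and 0.01 without replicate 1 or 2 of 6.5DDC, and -0.25 without replicate 3 of 6.5DDC. That of Slit1 was -0.028 without replicate 3 of 4.5DDC and -0.00024 without replicate 3 of 6.5DDC, and 0.40 without replicate 1 of 4.5DDC. That of Slit3 was 0.15 with limma on either FPKM scale, 0.028 in replicates 2 and 3 alone and 0.15 without replicate 1 of 4.5DDC, and -0.38 without replicate 3 of 4.5DDC. The causes were not tested. Over the 33 genes given by library, 568 other values kept sign and side of the threshold, 93 lost the call and 20 gained it. Robo3, Epha5, Epha8 and Dcc rest on few counts in replicate 1, and at 4.5DDC in replicates 2 and 3 as well, which limits the precision of their fold changes. Replicates 2 and 3 of 4.5DDC had 9 and 12 counts of Robo3, 13 and 6 of Epha8, 38 and 30 of Dcc, and 29 and 73 of Epha5.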
